A study of Mus musculus with 16 samples.

Results

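The 39 S phase genes described here are Mcm2, Mcm3, Mcm4, Mcm5, Mcm6, Mcm7, Mcm10, Pcna, Tyms, Rrm1, Rrm2, Gmnn, Cdc45, Cdc6, Cdt1, Gins2, Uhrf1, Ung, Slbp, Dut, Tk1, Fen1, Prim1, Pola1, Pole, Rfc2, Rfc4, Rpa2, Chaf1a, Chaf1b, Hells, Clspn, E2f1, Ccne1, Ccne2, Tipin, Dscc1, Exo1 and Nasp. They were chosen by name as DNA replication genes, with earlier results of these data known. All 39 were found by symbol among the 31053 features of the count matrices. The matrices came from 16 droplet single-cell RNA libraries of CD45+ cells, the pan-leukocyte surface marker, enriched and sorted from subcutaneous flank tumors. The hosts were C57BL/6J mice of 6 to 8 weeks, and the tumors were MC38, a mouse colorectal carcinoma line, or Panc02-SIY, a mouse pancreatic adenocarcinoma line that carries the model antigen SIY. Each tumor had 4 untreated libraries (NT) and 4 libraries from tumors that received a single 12 Gy dose and were harvested 24 h later (RT). The series text gives 4 animals a group and the study's methods give 3, so the p-values below measure the spread between these libraries, which may in part be technical.

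DNA replication is prepared in G1, when Cdc6 and Cdt1 load the ring-shaped MCM helicase on origins, and starts in S phase when cyclin E activity and the factors Cdc45 and GINS turn the ring into a moving helicase. Polymerases, the sliding clamp PCNA and its loader then copy the strands, while nucleotide enzymes supply the building blocks and chromatin assembly factors wrap the new DNA. Many of these genes are transcribed together from the G1/S boundary under E2F factors, so their messenger RNA is widely used as a sign of cells entering or passing S phase. Ionizing radiation breaks DNA and activates p53, whose target Cdkn1a encodes p21, an inhibitor of the cyclin-dependent kinases that drive this step. Proliferating T cells and some tumor macrophages use these genes, whereas mature neutrophils have left the cell cycle.

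The libraries of MC38 shared most of their cell barcodes. The median pair of the 8 MC38 libraries had 964.5 barcodes in common, 83.3% of the smaller library, and 769 barcodes occurred in all 8, whereas the median Panc02-SIY pair shared 82 barcodes, or 5.54%. Each barcode was therefore kept only in the library of its tumor where it had most UMIs (unique molecular identifiers), which left 2632 of 9843 MC38 barcodes and 18136 of 18835 Panc02-SIY barcodes, and for MC38 the counts of called members, the summed level and the members described library by library in the groups below are mostly given also for all barcodes. Kept depth was 1385711 to 8500889 UMIs a library in MC38 and 5275195 to 43708746 in Panc02-SIY, with 147 to 609 and 1113 to 4452 barcodes. MC38 RT replicate 1 was the thinnest, with 147 barcodes kept. Ptprc, the gene of CD45, was detected in 81.2% of MC38 and 85.9% of Panc02-SIY barcodes, and clusters with fibroblast markers were also present (below). The list of 6 fibroblast markers summed to between 12.3 and 336.6 CPM (UMI counts per 1000000 in the library) over the 16 libraries, with Panc02-SIY NT reaching the highest value and Panc02-SIY RT no more than 76.2 CPM. Lists of 6 epithelial and 6 endothelial markers summed to 23.7 to 83.8 CPM and 20.1 to 76.5 CPM, and 6 erythroid markers to at most 0.187 CPM outside MC38 RT, where the highest library reached 14.1 CPM, and the part of these cells in the results was not tested.

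To show the control sequence that the members are known for, promoter windows of 250 bases before to 50 bases after each transcription start were read from RefSeq (GRCm38.p6) and searched for 4 E2F words, TTTGGCGC, TTTCCCGC, TTTGCCGC and TTTCGCGC, on both strands (GCGCCAAA, GCGGGAAA, GCGGCAAA and GCGCGAAA on the other strand, and words may overlap). Of the 30 members with a window, 10 held at least one word (33.3%), compared with 704 of 27025 genes (2.6%) overall: Cdc6, Cdt1, Mcm3, Mcm5, Mcm6, Mcm7, Pola1, Uhrf1, Hells and Clspn. Among other replication genes 16 of 41 held one (39%), and among G2/M genes 1 of 30 (3.33%). Stretches of 60 bases upstream of the start that the window was built on are shown for 7 of the 10. They run 5′ to 3′ on the strand of the gene, with the word in capitals. Those of Cdc6, Uhrf1, Hells, Mcm7 and Pola1 lie within the annotated span of the gene, which begins further upstream. Each word is a match of letters and was not tested for binding.
Mcm6, chr1:128359719-128359778, minus strand: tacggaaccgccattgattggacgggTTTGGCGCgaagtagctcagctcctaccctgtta
Mcm7, chr5:138172015-138172074, minus strand: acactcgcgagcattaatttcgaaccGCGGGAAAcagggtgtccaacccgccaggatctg
Mcm5, chr8:75109334-75109393, plus strand, where 2 words overlap: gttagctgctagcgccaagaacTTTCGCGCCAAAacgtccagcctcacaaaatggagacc
Cdc6, chr11:98907987-98908046, plus strand: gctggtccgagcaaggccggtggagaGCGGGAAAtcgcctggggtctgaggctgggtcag
Uhrf1, chr17:56304102-56304161, plus strand: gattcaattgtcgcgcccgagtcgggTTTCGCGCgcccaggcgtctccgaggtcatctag
Hells, chr19:38930902-38930961, plus strand: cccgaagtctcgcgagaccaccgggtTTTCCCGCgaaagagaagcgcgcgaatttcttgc
Pola1, chrX:93632260-93632319, minus strand: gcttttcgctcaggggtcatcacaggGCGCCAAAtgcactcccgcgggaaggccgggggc

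When counts were summed over all CD45+ barcodes of a library, transcripts of the replication genes were lower after radiation in both tumors. In MC38, 36 of the 39 fell and 0 rose (edgeR quasi-likelihood test, Benjamini-Hochberg adjusted p under 0.1 and fold over 1.3), where 4.45% of the 12447 genes tested were called lower, and the median log2 change of the members was -1.39 against 0.04 for all genes. In Panc02-SIY, 34 of the 39 fell and 0 rose, with 6.99% of genes called lower, and the median change was -0.96 against -0.03. In each tumor 38 members had an unadjusted p under 0.05, DESeq2 called 36 and 34 lower with 0 higher, and all 39 log2 changes were negative, from -3.07 to -0.20 in MC38 and from -1.65 to -0.34 in Panc02-SIY. With all MC38 barcodes kept, the 39 changes remained negative with a median of -0.87, and 19 members were called lower, and 23 were called after all libraries were thinned to 1 mean depth. Without Panc02-SIY NT replicate 4 the count in that tumor was 21. In bulk sums of this kind, fewer cells that transcribe a gene and less RNA per cell cannot be told apart.

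**Figure D1:**
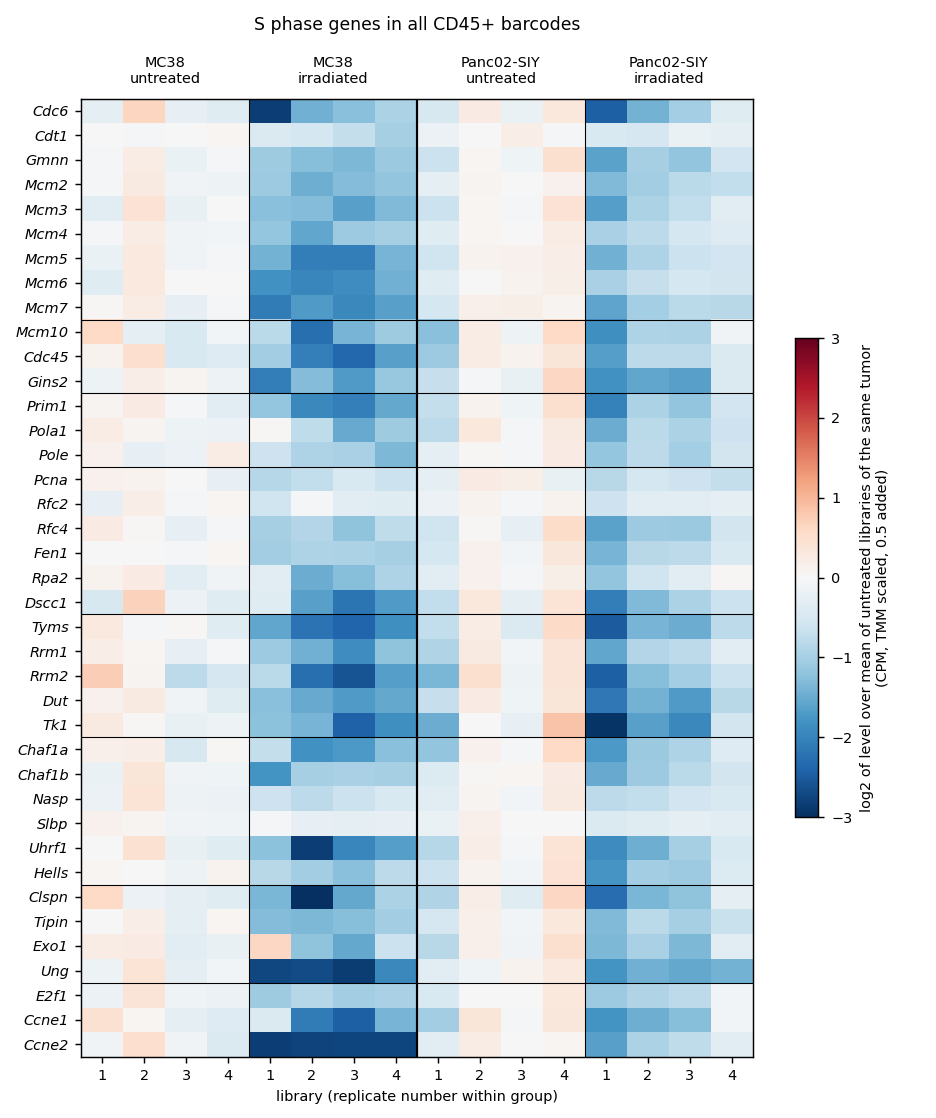
Heatmap of the 39 S phase genes (rows, grouped by role) in the 16 libraries (columns, 4 a group), summed over all CD45+ barcodes, where color is the log2 ratio of a library's level to the mean of the 4 untreated libraries of that tumor (CPM with 0.5 added). The irradiated columns lie below the untreated ones without overlap for 34 members in MC38 (8.22% of all genes) and 16 in Panc02-SIY (9.13%). In Panc02-SIY replicate 1 of both groups stands lowest for most rows.

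The 2 tumors shared 32 of the called members. With 36 and 34 of 39 called, most had to be shared, so this number is no separate result. Slbp, which binds the stem-loop of histone messages, was called in neither. Cdt1, Mcm10, Rpa2 and Ccne1 were called only in MC38, and Rfc2 and Exo1 only in Panc02-SIY, which does not show that these 6 differed between tumors. The 4 irradiated libraries lay below the 4 untreated libraries without overlap for 34 of 39 members in MC38 (8.22% of all genes) and for 16 of 39 in Panc02-SIY (9.13%). In Panc02-SIY the same libraries stood at the ends of the range. NT replicate 1 was lowest of its group for all 39 members and RT replicate 1 for 37, while NT replicate 4 was highest for 30 and RT replicate 4 for 34. Replicate 1 also had the fewest kept UMIs of its group (6500446 in NT, 5275195 in RT) and replicate 4 the most (43708746 and 26738456). The part of library size in this order was not tested. In MC38, NT replicate 2 was highest for 24 members and RT replicate 1 for 21.

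How barcodes were taken decided 17 of the 36 MC38 calls. The 19 members called lower with all barcodes as well were Cdt1, Mcm2, Mcm3, Mcm4, Mcm5, Mcm6, Mcm7, Prim1, Pole, Pcna, Fen1, Tyms, Rrm1, Dut, Chaf1a, Uhrf1, Tipin, Ung and Ccne2. The 17 others that are described below as lower in MC38 were not called with all barcodes, and they were Cdc6, Gmnn, Mcm10, Cdc45, Gins2, Pola1, Rfc4, Rpa2, Dscc1, Rrm2, Tk1, Chaf1b, Nasp, Hells, Clspn, E2f1 and Ccne1. Their log2 changes there lay between -1.20 for Rrm2 and -0.35 for Nasp, with adjusted p from 0.104 for E2f1 to 0.411 for Mcm10.

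All 9 origin licensing genes fell in MC38, with a median log2 change of -1.38, and 8 of 9 fell in Panc02-SIY, with a median of -0.86. Mcm6, a subunit of the helicase ring, measured 54.2, 86.0, 70.9 and 69.0 CPM in the MC38 NT libraries 1 to 4 and 19.4, 17.6, 18.9 and 25.6 CPM in the RT libraries, a log2 change of -1.74 (SE 0.17, adjusted p = 2.6e-05). Every irradiated library was at less than the lowest untreated one, and the change with all barcodes was -1.08 (adjusted p = 0.00129). In Panc02-SIY, Mcm6 went from 66.0, 86.1, 91.0 and 96.8 CPM to 43.3, 52.4, 58.5 and 58.0 CPM, also without overlap (log2 change -0.68, adjusted p = 0.00648). Another subunit of the ring, Mcm7, measured 66.9, 76.2, 55.4 and 62.9 CPM in MC38 NT and 14.8, 19.6, 16.8 and 20.8 CPM in MC38 RT, 3.53-fold lower (log2 change -1.82, SE 0.20, adjusted p = 4.35e-05, and with all barcodes -1.41, adjusted p = 0.000377). The Panc02-SIY values were 53.4, 85.4, 87.0 and 80.7 against 25.2, 37.8, 43.2 and 42.5 CPM (log2 change -1.04, adjusted p = 0.00132). For both genes the groups were apart in both tumors.

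Mcm2, which also carries histones at the fork, was 30.7, 39.3, 29.8 and 29.2 CPM in MC38 NT and 14.8, 11.46, 12.8 and 13.9 CPM in RT (log2 change -1.28, adjusted p = 0.000161, and with all barcodes -0.87, adjusted p = 0.00495). In Panc02-SIY it was 41.7, 53.6, 50.5 and 55.3 against 19.9, 24.1, 28.6 and 30.1 CPM (log2 change -0.96, adjusted p = 0.000391). The spread within each group was small beside the step between them. Mcm4 changed by -1.18 in MC38 and -0.65 in Panc02-SIY, Mcm5 by -1.74 and -0.86, and Mcm3 by -1.39 and -0.84 on the log2 scale, all called. For Mcm5 and Mcm3 the Panc02-SIY groups overlapped, because NT replicate 1 (45.7 CPM of Mcm5, 52.7 CPM of Mcm3) lay below at least one irradiated library.

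The loaders and their inhibitor behaved less evenly. Cdc6, the ATPase that recruits the ring, was low throughout, with 7.09, 13.6, 7.15 and 6.52 CPM in MC38 NT and 0.777, 2.86, 3.31 and 4.18 CPM in RT (log2 change -1.38, adjusted p = 0.0712, 165 and 52 UMIs in all, and with all barcodes -0.95, adjusted p = 0.213). In Panc02-SIY the change was -1.15 (adjusted p = 0.0422), with overlap. Cdt1, its partner, fell by 0.72 on the log2 scale in MC38 (adjusted p = 0.00284), and in Panc02-SIY went from 33.6, 37.5, 43.4 and 36.7 to 27.5, 26.6, 32.7 and 30.8 CPM, apart but under the 1.3-fold bound (log2 change -0.36, adjusted p = 0.0347). Gmnn, the geminin gene whose protein holds Cdt1 back once origins have fired, fell by 1.22 and 1.05.

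**Figure D2:**
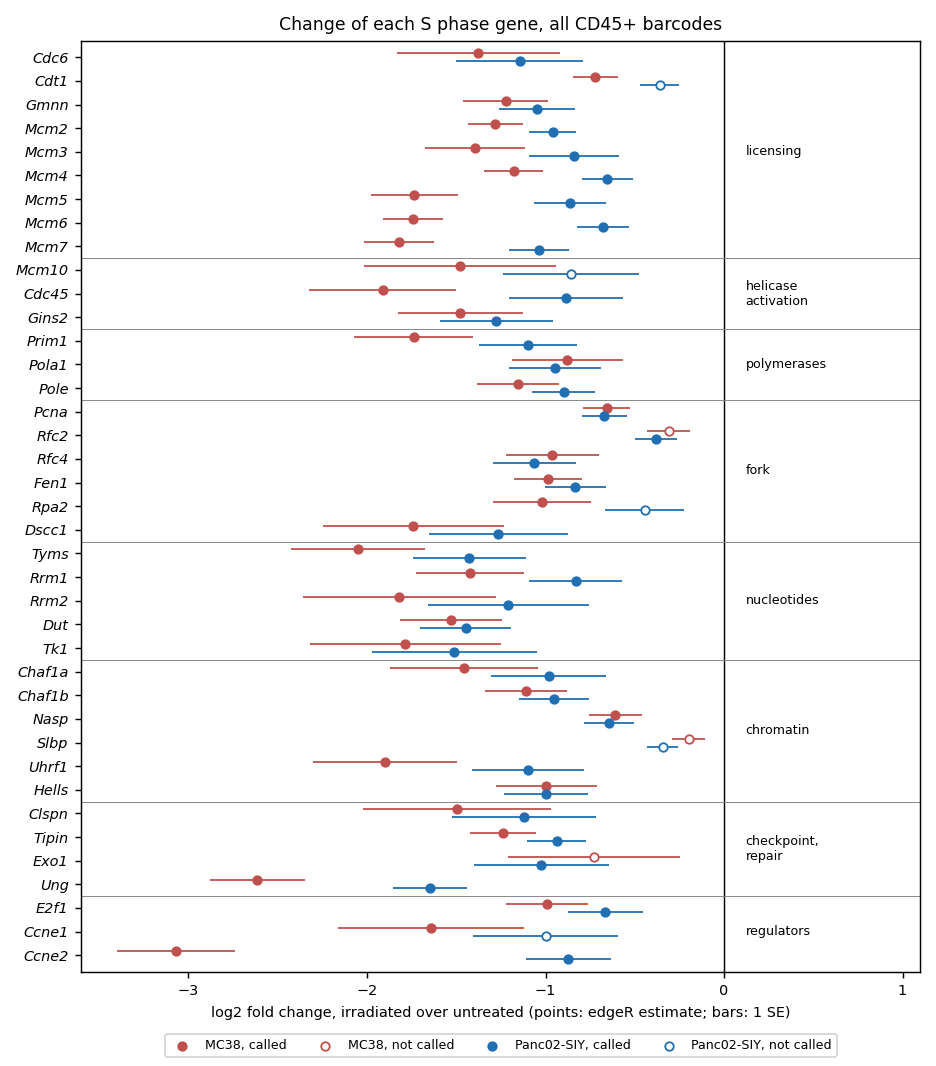
Log2 change (RT over NT) of each S phase gene over all CD45+ barcodes, with bars of 1 SE from the edgeR fit, in MC38 and Panc02-SIY. Filled points passed the test and open points did not. Every point lies below 0, with Ccne2 and Ung furthest out in MC38 and Slbp nearest to 0.

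Helicase activation and strand synthesis followed. Cdc45, the helicase cofactor, changed by -1.91 (adjusted p = 0.00967) in MC38 and by -0.89 (adjusted p = 0.0751) in Panc02-SIY, and the GINS subunit Gins2 by -1.48 and -1.28. Mcm10, which helps fire the helicase, was called in MC38 only (log2 change -1.48, adjusted p = 0.0979, 119 and 32 UMIs) and measured -0.86 (adjusted p = 0.153) in Panc02-SIY. The 3 polymerase genes all fell in both tumors. Prim1, the primase subunit that starts each strand, changed by -1.74 and -1.10, Pola1, which extends the primer, by -0.88 and -0.95, and Pole, the leading-strand polymerase, by -1.15 and -0.90. Pola1 was the member of this group whose MC38 libraries overlapped, since RT replicate 1 stood at 21.0 CPM beside NT values of 23.7, 21.7, 18.2 and 17.9.

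Fork genes gave the smallest changes, with a median of -0.97 in MC38 and -0.75 in Panc02-SIY. Pcna, the sliding clamp, measured 137.9, 135.0, 126.1 and 106.3 CPM in MC38 NT and 69.2, 75.7, 92.5 and 80.1 CPM in RT (log2 change -0.66, adjusted p = 0.006, and with all barcodes -0.58). The Panc02-SIY values were 118.0, 169.3, 161.6 and 123.3 against 79.8, 99.2, 93.2 and 86.8 CPM (log2 change -0.67, adjusted p = 0.00292). The clamp gene was thus 1.58-fold lower in MC38 and 1.59-fold lower in Panc02-SIY, with no overlap. Of the clamp loader genes, Rfc4 fell by 0.96 and 1.06, whereas Rfc2 changed by -0.31 (adjusted p = 0.122) in MC38 and by -0.38 (adjusted p = 0.038) in Panc02-SIY. Fen1, the flap nuclease that trims Okazaki fragments, fell by 0.99 and 0.83, and Dscc1, of the alternative loader, by 1.74 and 1.26 on few counts. Rpa2, a subunit of the single-strand binding protein, fell by 1.02 in MC38 and measured -0.45 (adjusted p = 0.206) in Panc02-SIY.

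All 5 nucleotide supply genes fell in both tumors, and as a group they had the lowest median after radiation in Panc02-SIY (-1.43) and in MC38 (-1.79). Tyms, thymidylate synthase, went from 49.4, 38.1, 41.1 and 31.2 to 13.2, 8.18, 7.33 and 10.9 CPM in MC38 (log2 change -2.05, SE 0.38, adjusted p = 0.00436, and with all barcodes -1.17, adjusted p = 0.0623). In Panc02-SIY it went from 20.1, 39.9, 25.0 and 50.4 to 5.60, 12.5, 11.7 and 19.4 CPM (log2 change -1.43, adjusted p = 0.00817), apart by a narrow gap. Dut, which clears dUTP so that uracil is kept out of DNA, measured 88.2, 97.2, 75.4 and 63.0 against 33.4, 28.2, 24.6 and 27.4 CPM in MC38 (log2 change -1.53, adjusted p = 0.00454, and with all barcodes -0.89). The Panc02-SIY libraries held 116.2, 220.8, 171.6 and 238.9 against 41.6, 69.7, 57.1 and 104.0 CPM (log2 change -1.45, adjusted p = 0.00238). Both dropped in every irradiated library below every untreated one. Rrm1 and Rrm2, the subunits of ribonucleotide reductase, changed by -1.42 and -1.82 in MC38, against -0.83 and -1.21 in Panc02-SIY, and Tk1, thymidine kinase, by -1.79 and -1.51. Within Panc02-SIY NT, Rrm2 ranged from 19.9 to 72.5 and Tk1 from 10.8 to 56.7 CPM.

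Of the 6 chromatin genes, 5 fell in each tumor. Uhrf1, which carries DNA methylation to the new strand, changed by -1.90 in MC38 (all barcodes -1.26) and -1.10 in Panc02-SIY, the chromatin assembly subunits Chaf1a by -1.46 in the first tumor and -0.98 in the second, Chaf1b by -1.11 and -0.95 (-0.955 before rounding), and the remodeler Hells by -0.995 and -0.997. The histone chaperone Nasp moved less, by -0.61 and -0.64. Slbp measured 107.6, 104.6, 90.9 and 90.2 CPM in MC38 NT and 95.6, 83.5, 81.8 and 82.9 in RT, with overlap (log2 change -0.20, adjusted p = 0.188). In Panc02-SIY its groups were apart, 116.7, 148.8, 135.8 and 134.1 against 99.4, 103.6, 111.3 and 107.9 CPM, with a change under the fold bound (log2 change -0.34, adjusted p = 0.0153).

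Ung, the uracil DNA glycosylase, was among the strongest members in both tumors. It went from 11.8, 17.6, 10.9 and 12.5 to 1.56, 1.64, 1.42 and 3.07 CPM in MC38, 6.13-fold lower (log2 change -2.61, SE 0.27, adjusted p = 3.99e-05, and with all barcodes -1.91, adjusted p = 0.00014). In Panc02-SIY it went from 9.03, 10.5, 12.5 and 14.2 to 2.96, 3.90, 3.67 and 4.03 CPM, 3.13-fold lower (log2 change -1.65, SE 0.21, adjusted p = 0.000203), the smallest p of the 39 there. Every irradiated library was below every untreated one in both tumors. The MC38 values rested on 266 UMIs in NT and 34 in RT, where replicate 4 stood above the rest. Tipin, of the fork protection complex, fell by 1.24 and 0.94 with no overlap in either tumor, and Clspn, the checkpoint mediator claspin, changed by -1.50 and -1.12. Exo1, an exonuclease of mismatch repair, was not called in MC38 (87 and 37 UMIs, log2 change -0.73, adjusted p = 0.379), where RT replicate 1 at 6.998 CPM lay above every untreated library (3.39 to 5.26 CPM), and fell by 1.02 in Panc02-SIY.

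Among the regulators, Ccne2, one of the 2 cyclin E genes, changed most of all 39 in MC38. It measured 13.01, 20.1, 13.04 and 10.4 CPM in the untreated libraries and 1.56, 1.64, 1.66 and 1.67 CPM in the irradiated ones, 8.4-fold lower (log2 change -3.07, SE 0.33, adjusted p = 4.31e-05, 274 against 25 UMIs, and with all barcodes -2.05 (-2.045 before rounding), adjusted p = 0.00153). In Panc02-SIY it went from 7.09, 10.9, 9.11 and 9.62 to 2.63, 4.49, 5.24 and 7.08 CPM (log2 change -0.87, SE 0.24, adjusted p = 0.0216), where the highest irradiated and the lowest untreated library nearly met. Ccne1 fell by 1.64 in MC38 (adjusted p = 0.0627) and measured -0.999 (adjusted p = 0.119) in Panc02-SIY. E2f1, a transcription factor of the G1/S program and itself one of its targets, fell by 0.99 and 0.66.

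The change itself was compared between the tumors in 1 fit over the 16 libraries. It was called for 2 members, both lower in MC38, at a background of 0.193% of genes in that direction (7 at an unadjusted p under 0.05, DESeq2 called 2). The MC38 change minus the Panc02-SIY change was -2.20 on the log2 scale for Ccne2 (95% interval -3.01 to -1.39, adjusted p = 0.0776) and -1.07 (-1.065 before rounding) for Mcm6 (95% interval -1.50 to -0.63, adjusted p = 0.0848), and Mcm7 came next (-0.79, adjusted p = 0.231). These calls rested on how the MC38 libraries were taken. With all barcodes 0 were called (edgeR, Ccne2 -1.19, Mcm6 -0.40), 0 were called without MC38 NT replicate 2, 3 or 4 or MC38 RT replicate 3, and 1 without MC38 RT replicate 1, 2 or 4 or Panc02-SIY RT replicate 3. The other 37 intervals do not show equal changes.

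Before radiation the tumors already differed for 17 members (4 higher and 13 lower in MC38, where 29.1% and 32% of all genes were called, 61.1% in either direction), so the share of members called was no larger than that of genes overall. Rpa2 (-1.37), Dut (-1.22) and Mcm2 (-0.65) were lower in untreated MC38, while E2f1 (0.94), Gins2 (0.91), Ccne2 (0.59) and Fen1 (0.44) were higher. Tumor and library set cannot be told apart here, and the classes of cells in the tumors differed (macrophage-like cells led MC38 and T cell-like cells led Panc02-SIY).

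**Figure D3:**
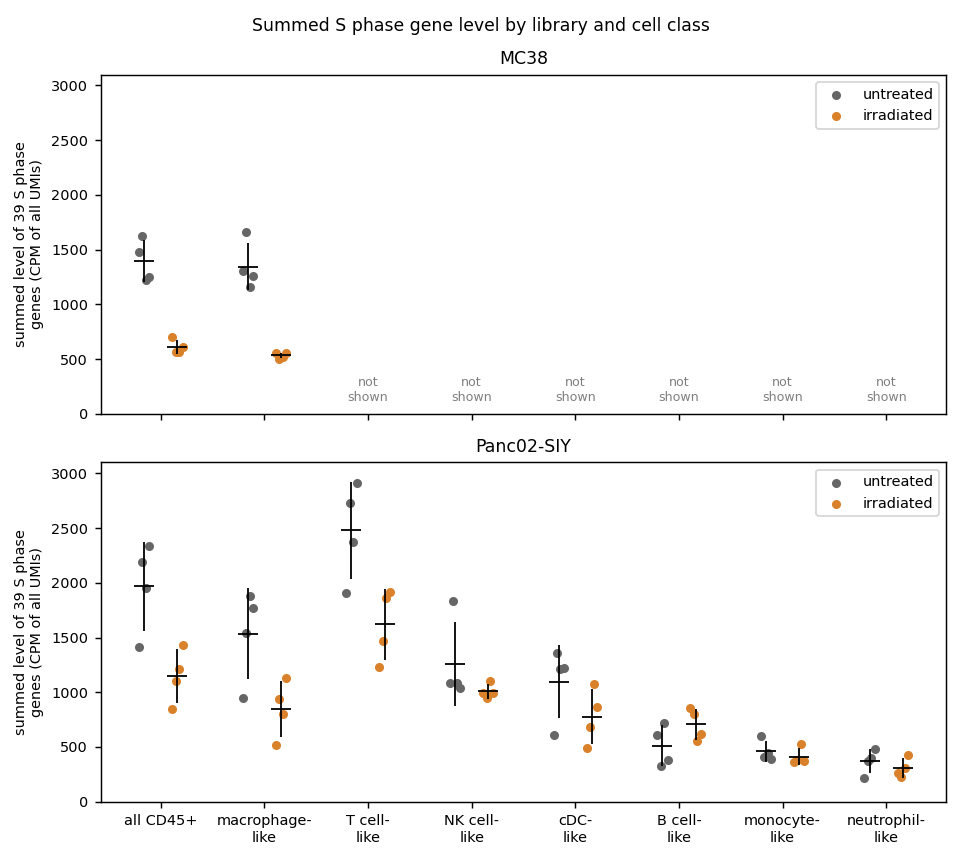
Summed level of the 39 S phase genes (CPM, linear axis from 0) in each library for all CD45+ barcodes and for the cell classes, where points are libraries, horizontal marks are group means and vertical bars are SD. Classes with under 10 barcodes in a library are marked as not shown, and over all CD45+ cells of MC38 the 4 irradiated libraries lie at 562 to 699 CPM, below the untreated range of 1224 to 1621 CPM, while the Panc02-SIY groups overlap.

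Added together, the 39 genes made up 1394 ± 190 CPM in MC38 NT and 609 ± 63.5 CPM in MC38 RT (SD, n = 4 each), a log2 ratio of -1.19. The untreated libraries held 1480, 1621, 1224 and 1252 CPM and the irradiated ones 699, 565, 562 and 611 CPM, with no overlap, and with all barcodes the means were 1281 and 718 CPM, also apart. In Panc02-SIY the sum was 1969 ± 406 against 1149 ± 244 CPM, a log2 ratio of -0.78. There the untreated libraries held 1409, 2185, 1948 and 2334 CPM and the irradiated ones 846, 1103, 1215 and 1432 CPM, so that the lowest untreated library fell within the irradiated range.

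Non-immune cells took part in these sums. Clusters with fibroblast markers made up 3.52% of Panc02-SIY NT and 1.90% of RT barcodes but carried 13.1% and 12.2% of the replication gene UMIs. Replicate 4 held most of these barcodes, and without it the clusters made up 2.18% of NT barcodes with 5.73% of those UMIs, and without RT replicate 4 they made up 1.48% of RT barcodes with 4.78%. Only 29.4% of their barcodes (5.24% in MC38) had a Ptprc UMI. Without them, a choice made after seeing the data, 36 members were called lower in MC38 (5.17% of 12196 genes) and 38 in Panc02-SIY (8.47%), with 35 in both. With so many called, most had to be shared. Rpa2 alone was not called in Panc02-SIY. The number of members without overlap in Panc02-SIY rose to 23 (10.7% of genes), its summed means were 1939 and 1092 CPM without overlap, and the difference between the tumors was again called for 2 members (0.5% of genes), Ccne2 (-1.95, adjusted p = 0.0515) and Mcm6 (-1.02, adjusted p = 0.0584).

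Cells were clustered without any S phase, replication, G2/M or histone gene, so that the members did not shape the classes, and classes were named from fixed markers. Clusters without a clear class by these markers were left unnamed, with 145 MC38 and 1370 Panc02-SIY kept barcodes. Among these was cluster 19, where T cell and regulatory T cell markers tied (Foxp3, Il2ra and Ctla4 among its top genes), so the T cell-like class leaves it out. Between Panc02-SIY NT and RT the pooled share of T cell-like barcodes went from 43.9% to 36.3%, of NK cell-like barcodes from 8.12% to 15.1%, of neutrophil-like from 7.69% to 13.46% and of monocyte-like from 1.97% to 7.22%. By library only the monocyte-like share was apart, at 0.988% to 4.64% in NT and 5.64% to 8.82% in RT, while the ranges of the other 3 classes overlapped. The pooled macrophage-like share went from 22.3% to 14.6%. Replicate 4 held most of these barcodes in both groups, and without it the share was 14.5% in NT and 10.4% in RT. The libraries ranged from 10.3% to 30.9% (median 15.4%) in NT and from 9.17% to 21.7% (median 11.9%) in RT. T cell-like cells gave 62.1% of the replication gene UMIs in Panc02-SIY NT and 50.8% in RT, and macrophage-like cells gave 83.9% and 73.8% in MC38. The part of these shares in the summed changes was not tested, and the members were therefore compared within classes. A class could still change in its make-up. Of the macrophage-like barcodes of Panc02-SIY, cluster 3 held 1312 of 2096 in NT and 581 of 1273 in RT. The part of such shifts in the changes within classes was not tested.

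In macrophage-like cells of MC38 35 of 39 members fell and 0 rose (6.26% of 10324 genes were called lower and 7.19% higher, DESeq2 called 36), the median log2 change was -1.50 (-1.495 before rounding), and 35 members did not overlap (10.3% of genes). Rfc2, Slbp, Exo1 and Ccne1 were not called. Tyms measured 37.99, 36.1, 40.4 and 28.7 CPM in NT and 13.4, 6.36, 7.09 and 8.96 CPM in RT (log2 change -2.08, SE 0.23, adjusted p = 4.64e-06). Rrm1 measured 45.5, 52.2, 39.5 and 45.9 against 18.6, 12.3, 13 and 16.6 CPM (log2 change -1.61, SE 0.18, adjusted p = 5.29e-06). Ccne2 measured 12.5, 22.5, 12.4 and 10.0 against 0, 0.908, 1.48 and 1.26 CPM (log2 change -3.56, adjusted p = 8.81e-06), 15 UMIs in all after radiation. In each of these 3 genes the irradiated libraries lay well below the untreated ones. With all barcodes 32 members were called with a median of -0.93, and the changes were -1.18 for Tyms, -1.07 for Rrm1 and -2.14 for Ccne2.

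In macrophage-like cells of Panc02-SIY 23 members fell and 0 rose (4.65% of genes called lower and 4.47% higher, DESeq2 called 19), with a median of -0.81, and 8 did not overlap (4.78%). Tyms went from 29.7, 24.5, 22.7 and 33.8 to 2.02, 8.58, 4.56 and 11.8 CPM (log2 change -1.67, SE 0.26, adjusted p = 0.000551), Tipin from 38.2, 28.9, 32.0 and 35.0 to 8.08, 17.2, 10.3 and 18.8 CPM (log2 change -1.07, SE 0.20, adjusted p = 0.00285), and Rrm1 from 63.6, 77.3, 81.1 and 78.2 to 22.2, 42.9, 29.6 and 54.3 CPM (log2 change -0.90 (-0.895 before rounding), SE 0.17, adjusted p = 0.00336). These 3 were apart in every library. The count was fragile, since 9 members were called without NT replicate 4, 11 without RT replicate 3 and 28 without RT replicate 4. NT replicate 1 held only 115 macrophage-like barcodes, and it was lowest of its group for 30 members. These barcodes held 224984 UMIs, of which 213 were of the 39 members. The other untreated libraries held 2767 to 21364 member UMIs. RT replicate 1 held 248, so values of single genes in both replicates 1 rest on few UMIs. E2f1, which fell over all CD45+ cells, measured 25.7 ± 2.69 and 25.1 ± 8.203 CPM here (SD, n = 4, log2 change -0.07, adjusted p = 0.908). Different clusters held the class in the tumors (8, 14 and 2 in MC38, 3 and 7 in Panc02-SIY), and the difference between the tumors was called for 0 of 39 members in this class and for 0.0581% of genes (edgeR, with 11 members at an unadjusted p under 0.05 and 0 called by DESeq2). Mcm6 came nearest (-1.18, adjusted p = 0.253).

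**Figure D4:**
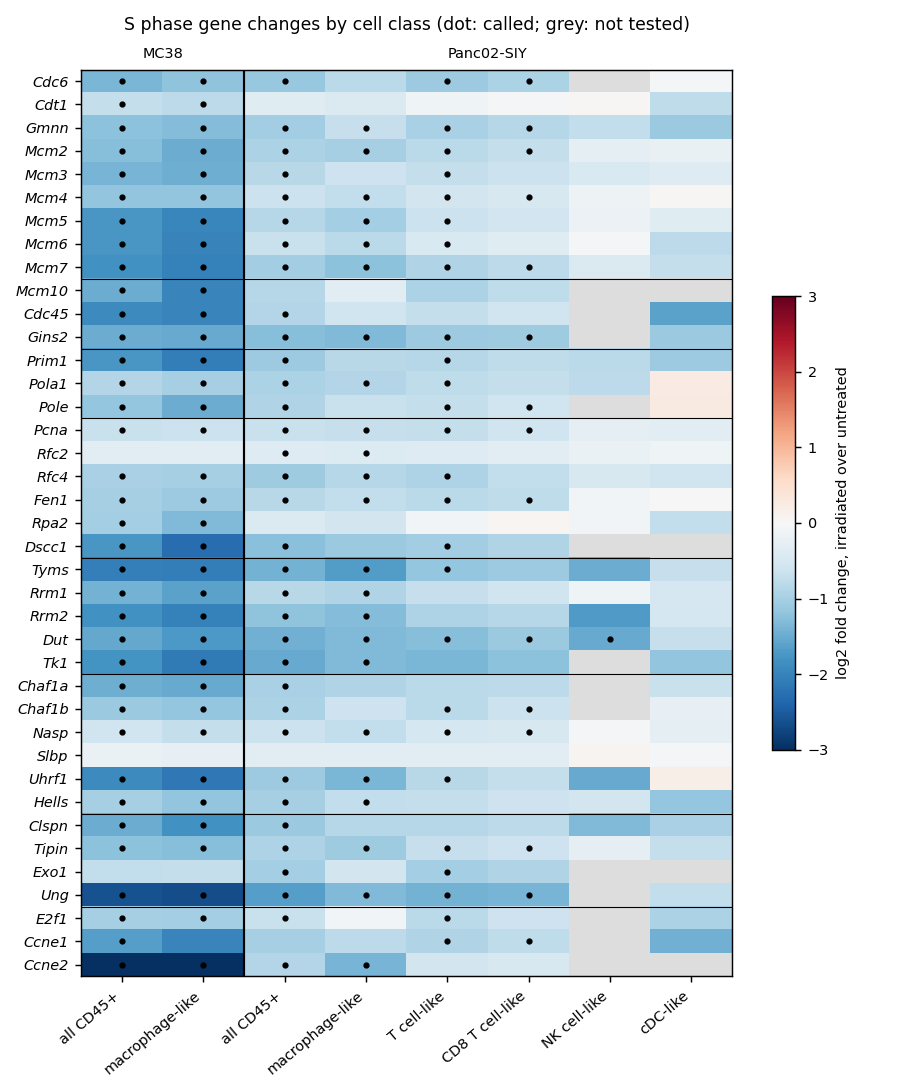
Heatmap of the log2 change (RT over NT, color) of the 39 S phase genes (rows, grouped by role) over all CD45+ cells and within cell classes (columns, MC38 at the left and Panc02-SIY at the right), with a dot for a called member and grey where it was not tested. Column medians lie at -1.50 and -0.81 in macrophage-like cells of MC38 and Panc02-SIY, at -0.81 in T cell-like cells and at -0.28 in NK cell-like cells of Panc02-SIY.

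T cell-like cells could be tested in Panc02-SIY, where 26 members fell and 0 rose (5.92% of 10645 genes called lower and 3.67% higher), with a median of -0.81, and 13 did not overlap (8.44% of genes). Ung measured 14.2, 12.7, 17.4 and 19.6 CPM in NT and 6.79, 5.56, 6.67 and 5.59 CPM in RT (log2 change -1.42, SE 0.19, adjusted p = 0.00177). Mcm7 measured 89.7, 118.6, 111.0 and 114.0 against 45.9, 53.6, 71.1 and 59.6 CPM (log2 change -0.90, SE 0.13, adjusted p = 0.00401). Mcm2 measured 64.2, 73.9, 70.5 and 80.2 against 31.7, 36.8, 48.7 and 45.6 CPM (log2 change -0.81, SE 0.13, adjusted p = 0.00646). Each fell in every irradiated library below the untreated range. Dut changed by -1.28 (adjusted p = 0.0153), and Rpa2 measured 115.5 ± 23.9 and 107.6 ± 47.0 CPM (SD, n = 4, log2 change -0.08, adjusted p = 0.913), with RT replicate 4 at 169.1 CPM above every untreated library. DESeq2 called 32. The count was 9 without NT replicate 2, 14 without NT replicate 4, 13 without RT replicate 1, 11 without RT replicate 2, 11 without RT replicate 3 and 35 without NT replicate 1.

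Within the T cell-like cells, CD8 T cell-like cells had 15 members called lower and 0 higher (4.22% and 2.96% of genes), led by Ung (log2 change -1.39 (-1.385 before rounding), adjusted p = 0.00201), Mcm7 (-0.79, adjusted p = 0.00511) and Dut (-1.12, adjusted p = 0.00654). Ung went from 14.4, 12.7, 16.5 and 19.4 to 5.25, 5.78, 7.07 and 5.87 CPM, with a wide gap between the groups. The number was 25 with DESeq2, 34 without NT replicate 1, and 7, 6 and 7 without NT replicate 2, RT replicate 2 and RT replicate 3. The T cell-like clusters differed in level: cluster 9 held 3991 and 2640 CPM of the summed members in NT and RT, cluster 6 held 2164 and 1265 CPM without overlap, and cluster 0 held 1664 and 1447 CPM. Their sizes moved as well. With copies included, cluster 9 had 658 barcodes in NT and 345 in RT, cluster 6 had 771 and 822, and cluster 0 had 1956 and 1432. The part of this shift in the T cell-like changes was not tested.

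In NK cell-like cells of Panc02-SIY 25 members had counts enough to test, and 1 fell (2.14% of genes called lower, 7 members at an unadjusted p under 0.05, DESeq2 called 1). That was Dut, with 63.2, 149.8, 70.7 and 66.4 CPM in NT and 23.7, 35.3, 25.0 and 36.0 CPM in RT (log2 change -1.51, SE 0.32, adjusted p = 0.0516). The count was 0 members without RT replicate 3, 2 without NT replicate 1 or 3, and 3 without RT replicate 4. Mcm6 and Nasp stayed near their untreated values, 75.5 ± 8.22 and 72.9 ± 17.2 CPM for Mcm6 and 78.7 ± 8.03 and 77.5 ± 10.8 CPM for Nasp (SD, n = 4). NT replicate 2 stood apart, with 1834 CPM of the summed members against 1037 to 1087 CPM in the other untreated NK cell-like libraries, and the class means were 1261 (1260.5 before rounding) and 1009 CPM.

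The remaining classes gave no calls. In conventional dendritic cell-like (cDC-like) cells of Panc02-SIY 0 of 35 members were called by edgeR (6 at an unadjusted p under 0.05, DESeq2 called 1 of 20, and 0.348% of genes were called), and the summed level was 1098 and 776 CPM. In monocyte-like cells 0 of 9 were called by edgeR (0 at an unadjusted p under 0.05, DESeq2 called 0, and 0.497% of genes were called), with 462 and 412 CPM, and in neutrophil-like cells 0 of 4 by edgeR (0 at an unadjusted p under 0.05, DESeq2 called 0, and 0.0557% of genes were called), with 368 and 306 CPM. B cell-like cells held 510 and 707 CPM, and 0 of 8 members were called by edgeR (0 at an unadjusted p under 0.05, 0.0217% of genes called, and none of the members tested by DESeq2). These classes had 11 to 382 barcodes a library, and a difference smaller than the spread was not detectable at this depth. In MC38 the classes other than macrophage-like had under 10 barcodes in at least one library, so T cell-like cells (8 to 73 barcodes) are given as values only, with means of 2054 and 1163 CPM. Their groups did not overlap but nearly met, at 1646 CPM in NT replicate 4 and 1633 CPM in RT replicate 1.

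Whether the fall differed between classes was tested from the summed counts of class pairs in Panc02-SIY, a comparison added after seeing the data. No member was called by edgeR for macrophage-like against NK cell-like cells (0 of 37, 10 at an unadjusted p under 0.05, 0.155% of genes called), T cell-like against NK cell-like cells (0 of 39, 6 under 0.05, 0.693% of genes), macrophage-like against T cell-like cells (0 of 39, 3 under 0.05, 0.0807% of genes) or macrophage-like against monocyte-like cells (0 of 35, 5 under 0.05, 1.24% of genes). DESeq2 was not run on the pairs. For macrophage-like minus NK cell-like cells the member of smallest unadjusted p was Mcm6 (log2 difference -0.85, adjusted p = 0.382). For T cell-like minus NK cell-like cells it was Nasp (-0.46, adjusted p = 0.2).

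**Figure D5:**
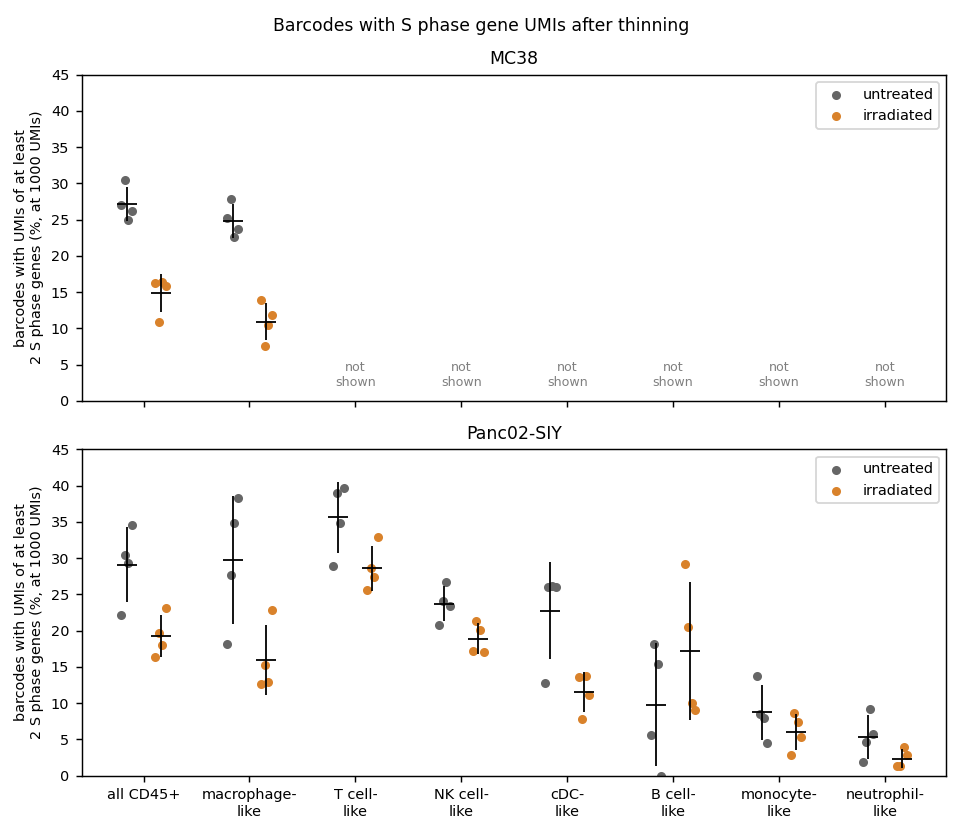
Share of barcodes (percent, axis from 0) with UMIs of at least 2 S phase genes after every barcode was thinned to 1000 UMIs, by library, class and group, where points are libraries, horizontal marks are means and vertical bars are SD. The neutrophil-like class, shown as background, has means of 5.35% and 2.35% in Panc02-SIY, and the macrophage-like classes fall from 24.8% to 10.9% in MC38 and from 29.8% to 15.9% in Panc02-SIY.

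Barcodes were counted in place of transcripts as well. After each barcode was thinned to 1000 UMIs, the share with at least 2 members detected was 27.1 ± 2.37% in MC38 NT and 14.9 ± 2.64% in MC38 RT (SD, n = 4), with ranges of 24.9% to 30.4% and 10.9% to 16.4% (195 and 165 shallower barcodes left out). With all MC38 barcodes it was 21.99% and 17.5%. In Panc02-SIY it was 29.1 ± 5.15% and 19.3 ± 2.86%, with ranges of 22.2% to 34.5% and 16.3% to 23.1% that overlapped (1415 and 1013 left out). Unthinned, the shares went from 80.9% to 69.7% in MC38 and from 69.6% to 62.2% in Panc02-SIY. T cell-like cells of Panc02-SIY went from 35.6% to 28.6%, NK cell-like cells from 23.7% to 18.9%, and cDC-like cells from 22.8% to 11.6%. The mean went the other way in B cell-like cells, from 9.78% (range 0% to 18.2%) to 17.2% (9.09% to 29.2%), and in fibroblast-like clusters it was 50.2% and 50.9%, with overlap in both. The fibroblast-like name covers cluster 16, with a median of 722 UMIs, under the thinning depth. It also covers cluster 21, with a median of 37875 UMIs and no MC38 barcodes. Which cells cluster 21 holds was not tested beyond its markers. Neutrophil-like cells, which should lack the program, stood at 5.35% and 2.35% (18.5% and 10.4% unthinned) and monocyte-like cells at 8.73% and 6.07%. The means of these classes were thus also lower after radiation, and the cause was not tested. Before thinning, MC38 barcodes with at least 2 members had medians of 10402 UMIs in NT and 4031 in RT. The rest had 16915 and 13500. In Panc02-SIY the order was the other way, with 8937 and 6337 UMIs against 6491 and 5079. The part of depth or cell class in the shares was not tested.

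G2/M genes were looked for in the same barcodes. In the thinned data 31.5% of barcodes with at least 2 S phase genes in MC38 NT and 25.7% in MC38 RT had at least 2 G2/M genes, against 9.40% and 5.70% of the remaining barcodes, and the Panc02-SIY values were 31.4% and 20.04% against 7.90% and 3.28%. These are shares of pooled barcodes and were not tested.

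Most of the other replication genes also had negative changes. Of 50 further replication genes, 28 fell in MC38 and 0 rose, where 4.45% of all genes were called lower and 7.24% higher. In Panc02-SIY 28 fell and 1 rose, where 6.99% of all genes were called lower and 7.69% higher. Among them, Pclaf, which encodes a PCNA-binding factor, changed by -1.61 and -1.44, the ligase gene Lig1 by -1.68 and -1.14, and the histone chaperone Asf1b by -1.86 and -1.10. The 1 that rose, Dna2, a nuclease of flap processing and break repair (named after its value was seen), went from 11.3, 13.3, 14.8 and 10.6 to 26.8, 19.5, 25.5 and 18.1 CPM in Panc02-SIY (log2 change 0.84, adjusted p = 0.00426), without overlap, and measured -0.26 (adjusted p = 0.377) in MC38.

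Of 33 genes of G2 and mitosis, 6 fell in MC38 (DESeq2 called 12) and 1, the spindle checkpoint gene Mad2l1 (log2 change -0.815, adjusted p = 0.0739), fell in Panc02-SIY, while all 33 values were negative in each tumor with medians of -1.02 and -0.815. Of all genes 4.45% were called lower in MC38 and 6.99% in Panc02-SIY, so the share called in Panc02-SIY was no larger than that of genes tested. Mki67, the Ki-67 gene, measured 87.0, 29.7, 42.3 and 67.7 CPM in MC38 NT and 56.8, 28.2, 12.3 and 31.9 CPM in RT (log2 change -0.93 (-0.925 before rounding), adjusted p = 0.419), and -1.01 (adjusted p = 0.279) in Panc02-SIY. Top2a, the mitotic topoisomerase gene, measured -0.32 (adjusted p = 0.73) and -0.65 (adjusted p = 0.376). The summed G2/M level went from 944 ± 360 to 500 ± 198 CPM in MC38 and from 1490 ± 809 to 890 ± 530 CPM in Panc02-SIY (SD, n = 4), with overlap in both tumors. In macrophage-like cells 27 of the 33 fell in MC38 (6.26% of genes called lower) and 5 in Panc02-SIY (4.65%). In T cell-like cells of Panc02-SIY 0 were called (edgeR, 0 at an unadjusted p under 0.05, DESeq2 called 0, and 5.92% of genes were called lower).

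Targets of p53 went the other way, with 15 of 19 tested genes higher in MC38 and 16 of 19 in Panc02-SIY (7.24% and 7.69% of all genes were called higher). Cdkn1a measured 423.6, 413.2, 450.4 and 350.2 CPM in MC38 NT and 1433, 1718, 1554 and 1504 CPM in RT (log2 change 1.92, adjusted p = 2.27e-06), and 67.3, 45.0, 58.8 and 45.6 against 397.2, 308.7, 375.2 and 506.7 CPM in Panc02-SIY (log2 change 2.88, adjusted p = 3.45e-08). Ccng1, cyclin G1, changed by 2.35 and 1.75. In both tumors every irradiated library stood above every untreated one for these 2 genes. The changes of all 39 S phase genes had the opposite sign. The groups were apart for 34 of them in MC38 (8.22% of all genes were lower without overlap) and 16 in Panc02-SIY (9.13%).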

How the data were processed

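The 16 libraries were made with a 10x 3′ kit, and the deposited matrices hold UMI counts per gene and barcode that the authors made with Cell Ranger 3.1.0 on mm10 (bcl2fastq 2.20.0, per the labels), with no normalization. From these raw counts each of 28678 barcodes was kept in the library of its tumor with most UMIs (20768 kept). All 28678 barcodes, copies included, were clustered (scanpy 1.11.5, leidenalg 0.10.2, Python 3.11.15) without S phase, replication, G2/M and histone genes. The clusters were also named from all of them, and each kept barcode took the class of its cluster. A filter on cells (500 genes or more, mitochondrial share up to 10%, 16349 barcodes) was an alternative. The automatic doublet call marked 31 barcodes (0.108%) and did not work, so none were removed in the main fit, and removal of the top 5% (882) was an alternative. Counts were summed per library and class and fitted with edgeR 4.0.16 in R 4.3.3, with 1 coefficient per group, TMM scaling and filterByExpr at a minimum count of 10 (3 for cDC-like and B cell-like cells). Fits of all CD45+ and of macrophage-like cells took the 16 libraries, and fits of the other classes took those of Panc02-SIY alone. Calls needed an adjusted p under 0.1 with a fold over 1.3, the thresholds of the study, and changes are log2 of RT over NT with the SE from the quasi-likelihood F. DESeq2 1.42.0, the replicate number as block, other filters, thresholds and scalings, thinning, all barcodes and leaving out each library were the alternatives. Gene CPM are TMM scaled, and summed levels are over all UMIs of the library or class. Intervals cover the fit or the spread between libraries, and depth limited classes with few barcodes. Per-library values are given for called members, for the 8 members of smallest p in each tumor and for at most 3 in a class; of other lists at most 4 called genes with the largest change were named, with Cdkn1a, Ccng1, Mki67 and Top2a. The scripts were tested on simulated data. The members and lists were chosen with earlier results of these data known. Promoter windows came from RefSeq tables of GRCm38.p6; 30 of 39 members had one.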

Additional observations from a re-analysis of the deposited data

Results flagged for a closer look

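Of 178 groups of 4 libraries checked, 13 (7.3%) had a library whose gap to the rest exceeded Dixon's limit for the group's range, where chance gives about 1 in 20. For all CD45+ cells of MC38, NT replicate 2 was above the other 3 untreated libraries for Cdc6 (13.62 CPM, others 6.522 to 7.146), Mcm2 (39.31, others 29.16 to 30.74), Chaf1b (25.69, others 17.26 to 18.58), Nasp (98.13, others 64.96 to 66.64) and E2f1 (41.48, others 28 to 28.76). Clspn was 25.54 CPM in MC38 NT replicate 1 (others 13.04 to 14.86). After radiation, Chaf1b was 5.443 CPM in MC38 RT replicate 1 (others 9.755 to 9.933) and Slbp 95.63 CPM in the same library (others 81.83 to 83.46), and Ung was 3.066 CPM in MC38 RT replicate 4 (others 1.419 to 1.636).

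In Panc02-SIY, Mcm5 was 45.73 CPM in NT replicate 1 (others 74.85 to 79.51) and Gins2 10.58 CPM in RT replicate 4 (others 3.786 to 4.639). The summed level of the 39 genes was 1834 CPM in NK cell-like cells of NT replicate 2 (others 1037 to 1087) and 523.9 CPM in monocyte-like cells of RT replicate 3 (others 366.6 to 384.7).

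A test of the difference between the tumors set apart Mcm6, whose log2 change in MC38 minus that in Panc02-SIY was -1.07 (-1.065 before rounding), and Ccne2, at -2.20 (-2.198 before rounding).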

How the results depend on the processing

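The direction of the summed level held under every alternative run, and 214 of 255 counts of called members stayed within 1.5 times. Counts that stayed at 0 are among the 214, also in classes where few members could be tested. Of the results for single genes, 3182 kept their label, 352 lost their call, 74 gained one and 5 changed sign. Over all CD45+ cells of MC38, 19 members were called lower with all barcodes and 23 after thinning. The difference between tumors was called for 1 member at a minimum count of 3 or after thinning, and for 0 at an adjusted p of 0.05 or with all barcodes. The untreated comparison gave 11 at a log2 fold of 0.58. CD8 T cell-like cells gave 25 with DESeq2; NK cell-like cells 7 with no filter and 2 with cycle genes kept in clustering; neutrophil-like cells 1 with no filter; cDC-like cells 1 with DESeq2 and 2 with no filter. With all barcodes the MC38 log2 ratio of the summed level was -0.83 (-0.835 before rounding) for all CD45+ and -0.89 (-0.885) for macrophage-like cells, and the change in the share of barcodes was -4.48 and -4.46 percentage points; at 3 members it was -9.48 and -11.0. For NK cell-like cells of Panc02-SIY the share changed by -1.91 points at 1 member and -0.148 at 3. The cause of these shifts was not tested.

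Leaving out 1 library gave 24 to 33 members lower in MC38, 21 (without Panc02-SIY NT replicate 4) to 36 in Panc02-SIY, 0 to 2 for the difference, 14 to 20 for the untreated tumors, 35 to 36 and 9 to 28 in macrophage-like cells of MC38 and Panc02-SIY, 9 to 35 in T cell-like, 6 to 34 in CD8 T cell-like, 0 to 3 in NK cell-like and 0 to 2 in cDC-like cells. The sign turned for Exo1 in MC38 after thinning (0.35), E2f1 in macrophage-like cells of Panc02-SIY without RT replicate 3 (0.063, range over left-out libraries -0.15 to 0.063), and Rpa2 in T cell-like cells without NT replicate 4 (0.07), RT replicate 1 (0.11) or RT replicate 2 (0.03, range -0.38 to 0.11).

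Same-numbered NT and RT libraries did not deviate together in every pair (r 0.081, -0.039, 0.051 and 0.018 in MC38; 0.404, -0.159, 0.318 and 0.751 in Panc02-SIY), so the numbers were not taken as pairs. The best match had the same number for replicates 1, 3 and 4 of Panc02-SIY and for replicate 1 of MC38. The labels do not say whether the numbers pair. With the replicate block 36 members were lower in MC38, 35 in Panc02-SIY, 2 for the difference, 36 in T cell-like, 34 in CD8 T cell-like, 6 in NK cell-like and 1 in cDC-like cells. Without the block, as in the counts given above, T cell-like, CD8 T cell-like and NK cell-like cells had 26, 15 and 1.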
